A study of Mus musculus with 12 samples.

Results

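The polyamines putrescine, spermidine, and spermine are small, positively charged molecules that bind nucleic acids and are needed for growth and translation. They are built from ornithine and from decarboxylated S-adenosylmethionine (SAM), and the aminopropyl transfers that make spermidine and spermine release methylthioadenosine, from which adenine is salvaged. Acetylation and oxidation bring spermine and spermidine back to putrescine, and antizymes, which are themselves translated by a polyamine-dependent frameshift, bind ornithine decarboxylase and send it to the proteasome. The 10 genes described here encode the enzymes of this cycle and the regulators of ornithine decarboxylase. They are Odc1, Amd1, Srm, and Sms for synthesis, Sat1, Smox, and Paox for catabolism, and Azin1, Oaz1, and Oaz2 for regulation. They were selected by symbol, and all 10 were found among the 12591 genes of the table.

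The cells were embryonic fibroblasts (MEFs) from mice of the strain C57 PER2::LUC, prepared from heterozygous knock-in animals whose clock protein PER2 carries a luciferase tag, so that every group shared this allele. The paper calls its PER2::LUC fibroblasts immortalized in a figure legend and lists them as a cell line. Confluent dishes received for 24 h either 10 μM Deazaneplanocin A (DZ), an inhibitor of adenosylhomocysteinase (AHCY), 1 mM adenine, or 1 mM SAM, and control dishes (CTL) received the vehicle, which at 3.3 mM HCl was present in every group. Each group had 3 dishes, and polyadenylated RNA from each dish gave 1 library, 12 in all. The age and number of the embryos are not given in the sources used here.

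The transcripts of this pathway carry regulatory sequences of their own, and those of the antizymes and of Amd1 are shown because their RNA is what the libraries counted, while the protein made from it depends on them. In the GENCODE vM39 annotation of the mouse genome GRCm39, the coding sequences of Oaz1 and Oaz2 each skip 1 base at an in-frame stop codon, the site of the +1 frameshift. The windows of 27 bases around it lie in coding exons, at chr10:80664117-80664143 (plus strand) for Oaz1 and chr9:65593542-65593568 (plus strand) for Oaz2. They are given 5′ to 3′ with the stop codon in capitals.
Oaz1: cggtggtgctccTGAtgtccctcaccc
Oaz2: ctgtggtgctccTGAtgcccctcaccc
The windows share 25 of 27 bases, and the stop codon follows 68 codons in Oaz1 and 32 codons in Oaz2, with a further 159 and 157 codons after the shift. The leader of Amd1, the untranslated part before its coding sequence, holds a short open reading frame of 6 codons, the stop codon not counted, which is known to slow translation of Amd1 when polyamines are abundant. It begins at base 15 of a 331-base leader, at chr10:40178151-40178171 (minus strand), and its start and stop codons are in capitals.
Amd1: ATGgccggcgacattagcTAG

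The depth of the libraries, as reads on the listed genes, ran from 45649534 to 56789090, and the 10 genes had between 335 reads (Paox) and 23778 reads (Oaz1) in a library. Values are log2 CPM, that is reads divided by the normalized library size the authors used, and log2 fold changes are differences of their group means in 1 limma model of all 12 libraries, with standard errors (SE) from that model, p-values adjusted over the 12591 genes, and a threshold of 0.01. The 3 comparisons with CTL used the same CTL dishes. With 3 dishes against 3, an exact permutation test of 1 gene cannot go below p = 0.1, and the model p-values measure the spread between dishes only. Of 11 fibroblast markers 8 were in the table (Lum, Dcn, and Fap were not), and their summed level was 21841 to 22281 CPM in CTL, 27665 to 28259 in DZ, 24223 to 26540 in adenine, and 15862 to 17239 in SAM. None of 5 epithelial and 5 endothelial markers was listed, and of 6 leukocyte markers Cd68 alone, at 2.99 to 3.96 CPM in CTL, 2.70 to 3.75 in DZ, 10.8 to 12.3 in adenine, and 15.5 to 17.6 in SAM. The part of these shifts in the results below was not tested, and in bulk RNA fewer cells of a type cannot be told apart from less RNA per cell.

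The pathway was unevenly expressed in CTL cells. As reads per kilobase of the canonical transcript divided by the library size (RPKM), Oaz1, the general antizyme, stood highest at 233 ± 6.87 (SD, n = 3), followed by Sat1, the spermidine and spermine acetyltransferase, at 156 ± 1.50. Srm, spermidine synthase, Odc1, ornithine decarboxylase, and Oaz2, the second antizyme, came next at 73.0 ± 3.36, 53.8 ± 1.64, and 51.9 ± 1.16 RPKM. Azin1, the antizyme inhibitor, and Amd1, which makes decarboxylated SAM, had 29.4 ± 0.685 and 26.9 ± 0.444 RPKM, and Sms, spermine synthase, had 17.0 ± 0.238. The oxidases were lowest, with 6.43 ± 0.429 RPKM for Smox, which oxidizes spermine, and 1.81 ± 0.166 for Paox, which oxidizes acetylated polyamines. Among neighbours in this order, only the CTL libraries of Odc1 and Oaz2 overlapped. Oaz1 and Sat1 held the first and second places and Sms, Smox, and Paox the last places in all 4 groups, also when all exons of the gene were taken as its length, but the order of the other 5 genes depended on that choice of length. In SAM, the distance between the top genes widened, with Oaz1 at 388 ± 16.8 RPKM and Sat1 at 80.1 ± 3.74.

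**Figure D1:**
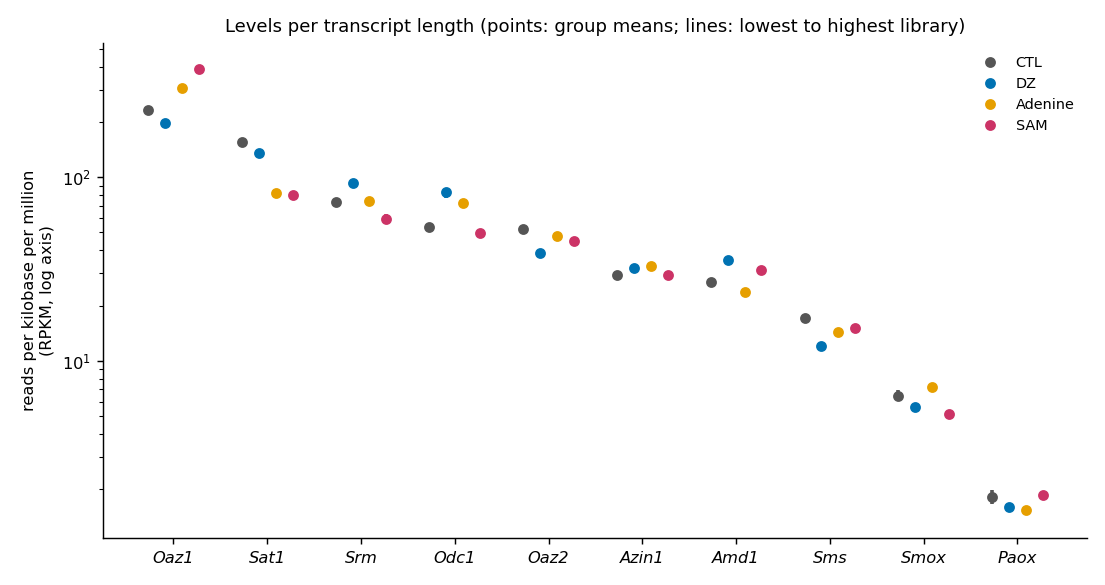
Level of each of the 10 genes as length-scaled reads of the canonical transcript (RPKM, log axis) by group, with points for group means of 3 libraries and lines from the lowest to the highest library, mostly shorter than the points. Oaz1 was highest in every group (198 in DZ to 388 in SAM) and Paox lowest (1.54 in adenine to 1.87 in SAM).

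Each treatment moved some of the 10 genes up and others down. DZ changed 8 of them, where 45.9% of all genes tested were called (22.6% higher and 23.4% lower), with Odc1, Amd1, Srm, and Azin1 higher and Sms, Sat1, Oaz1, and Oaz2 lower. Adenine changed 7, with Odc1, Azin1, and Oaz1 higher and Amd1, Sms, Sat1, and Oaz2 lower, against 61.6% of all genes (30.6% higher and 31.0% lower). SAM also changed 7, with Amd1 and Oaz1 higher and Srm, Sms, Sat1, Smox, and Oaz2 lower, against 69.3% of all genes (33.7% higher and 35.7% lower). The share called among the 10 genes was thus 80% in DZ, above that of all genes, and 70% in adenine and in SAM, in both cases within 1 gene of the background. The dishes of treatment and CTL did not overlap for 9 of the 10 genes in DZ (65.4% of all genes), 9 in adenine (74.7%), and 8 in SAM (77.6%). The median log2 fold change of the 10 genes was -0.182 in DZ, -0.0495 in adenine, and -0.151 in SAM, where the medians of all genes were -0.00569, -0.00301, and -0.0154. Their median absolute log2 fold change was 0.292 in DZ beside 0.180 for all genes, and it lay below that of all genes in adenine (0.204 beside 0.265) and in SAM (0.218 beside 0.343). Sms, Sat1, and Oaz2 were lower in each of the 3 comparisons. Amd1 and Oaz1 were also called in each of them but with mixed signs, Odc1, Azin1, and Srm in 2 of them, Smox in 1, and Paox in none.

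**Figure D2:**
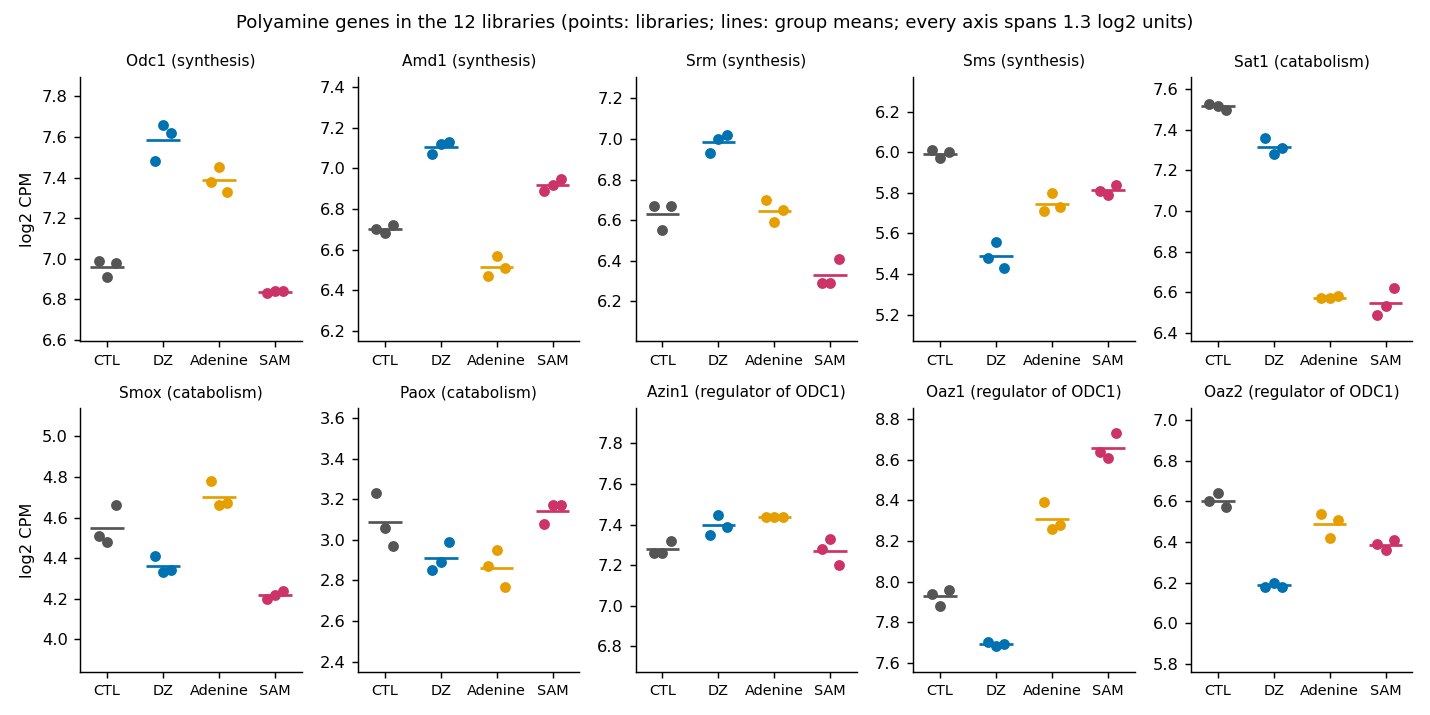
Log2 CPM of the 10 genes in each of the 12 libraries (points) with group means of 3 libraries (lines), every axis spanning 1.3 log2 units at its own height. Sat1 was near 7.5 in CTL and near 6.5 in adenine and SAM, and Oaz1 rose from 7.92 in CTL to 8.66 in SAM.

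The enzymes of synthesis rose with DZ except for the last of them. Odc1 (ENSMUSG00000011179, chr12:17594383-17601507), which makes putrescine and is the classical point of control, was at 6.99, 6.91, and 6.98 log2 CPM in CTL and at 7.48, 7.66, and 7.62 in DZ. It was at 7.38, 7.45, and 7.33 in adenine and at 6.83, 6.84, and 6.84 in SAM. All DZ and adenine dishes thus lay above all CTL dishes, and the SAM dishes lay just below them. The log2 fold change was 0.63 in DZ (SE 0.0434, adjusted p = 1.39e-08), 0.43 in adenine (adjusted p = 3.34e-07), and -0.12 in SAM, the last not past the threshold (adjusted p = 0.0197, 95% interval from -0.21 to -0.028). The SAM value was called lower with medians set equal (-0.16, adjusted p = 2.50e-03), in a separate model of SAM and CTL (-0.12, adjusted p = 8.78e-03), and at an FDR of 0.05, and was 0.0017 on plain read totals.

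Amd1 (ENSMUSG00000075232, chr10:40162797-40178185), which commits SAM to polyamine synthesis and carries the short reading frame shown above, was at 6.70, 6.68, and 6.72 log2 CPM in CTL. It stood at 7.07, 7.12, and 7.13 in DZ, at 6.47, 6.57, and 6.51 in adenine, and at 6.89, 6.92, and 6.95 in SAM. No group overlapped with CTL, but adenine lay below it and the other treatments above it. Its log2 fold change was 0.41 in DZ (SE 0.0320, adjusted p = 5.97e-08), -0.18 in adenine (adjusted p = 1.05e-04), and 0.22 in SAM (adjusted p = 1.21e-05).

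Srm (ENSMUSG00000006442, chr4:148675940-148681792) adds the first aminopropyl group and Sms (ENSMUSG00000071708, chrX:156226848-156275317) the second. Srm had 6.67, 6.55, and 6.67 log2 CPM in CTL, 6.93, 7.0, and 7.02 in DZ, 6.70, 6.59, and 6.65 in adenine, and 6.29, 6.29, and 6.41 in SAM. It rose by 0.35 in DZ (SE 0.0444, adjusted p = 8.26e-06), fell by 0.30 in SAM (adjusted p = 1.47e-05), and in adenine overlapped with CTL, at a difference of 0.015 with a 95% interval from -0.080 to 0.11. Srm was thus called higher with DZ and lower with SAM. Sms had 6.01, 5.97, and 6.0 in CTL, 5.48, 5.56, and 5.43 in DZ, 5.71, 5.80, and 5.73 in adenine, and 5.81, 5.79, and 5.84 in SAM. All 9 treated dishes lay below the 3 CTL dishes, with log2 fold changes of -0.50 in DZ (SE 0.0398, adjusted p = 6.61e-08), -0.25 in adenine (adjusted p = 4.80e-05), and -0.18 in SAM (adjusted p = 6.95e-04). The SAM call of Sms was lost on plain read totals (-0.059, adjusted p = 0.186).

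Because the synthases moved in opposite directions with DZ, their promoters are shown, from 250 bases before to 50 bases after the start of the canonical transcript on GRCm39. They were searched on both strands for the E-box CACGTG, bound by MYC and by clock factors, the CCAAT box, the GC box GGGCGG, the core TGACGT of cyclic AMP response elements, and the TATA box in the form TATAAA. All matches are in capitals, and none overlaps another in these windows. The first is Srm at chr4:148675690-148675989 (plus strand) and the second is Sms at chrX:156275247-156275546 (minus strand).
Srm: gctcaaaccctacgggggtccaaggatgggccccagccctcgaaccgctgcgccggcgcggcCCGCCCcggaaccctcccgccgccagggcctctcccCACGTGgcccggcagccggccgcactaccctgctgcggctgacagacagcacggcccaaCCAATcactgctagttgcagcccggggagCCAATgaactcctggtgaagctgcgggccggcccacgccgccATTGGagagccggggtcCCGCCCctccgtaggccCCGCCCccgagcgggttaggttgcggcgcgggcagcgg
Sms: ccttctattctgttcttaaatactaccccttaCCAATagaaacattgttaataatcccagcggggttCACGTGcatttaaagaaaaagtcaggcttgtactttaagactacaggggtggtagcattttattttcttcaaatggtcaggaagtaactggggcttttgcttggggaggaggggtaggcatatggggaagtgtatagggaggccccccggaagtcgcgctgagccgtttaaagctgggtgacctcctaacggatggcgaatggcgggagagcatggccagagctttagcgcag
Both windows hold 1 E-box, which begins 152 bases before the start in Srm and 183 bases before it in Sms. Of the 10 promoters these were the ones with an E-box, which 9.62% of the promoters of 12574 listed genes hold. Srm has 3 CCAAT and 3 GC boxes and Sms 1 CCAAT and no GC box, and the GC content was 74.3% and 48.7% beside a median of 57.3% over all promoters. GC boxes were found in 7 of the 10 promoters (55.6% of all promoters), CCAAT in 4 (39.7%), TATAAA in Oaz1 and Oaz2 (9.19%), and TGACGT in none (11.1%), and the window of Azin1 held no match. The TATAAA match began at base -33 from the start in Oaz1 and at base -241, far from the start, in Oaz2. In Paox and in Oaz2, neighbouring GC box matches after the start share a base. A match describes these letters in these windows and was not related to the changes by a test.

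In catabolism, the acetyltransferase fell most. Sat1 (ENSMUSG00000025283, chrX:153996128-153999452), which acetylates spermidine and spermine for export or oxidation and is normally induced by polyamines, was at 7.53, 7.52, and 7.50 log2 CPM in CTL and at 7.36, 7.28, and 7.31 in DZ. It was at 6.57, 6.57, and 6.58 in adenine and at 6.49, 6.53, and 6.62 in SAM. The treated dishes were all below CTL, those of adenine and SAM by far more than the dishes of any group differed among themselves. The log2 fold change was -0.20 in DZ (SE 0.0339, adjusted p = 1.28e-04), -0.94 in adenine (adjusted p = 1.76e-12), and -0.97 in SAM (adjusted p = 6.75e-13), the last 2 being 0.522-fold and 0.512-fold of CTL. These were the largest changes of any of the 10 genes. Sat1 shares 135 exon bases with a gene model on the same strand that was not listed. Odc1 (136 bases) and Oaz1 (74 bases) likewise overlap unlisted small RNA genes on the same strand. Unlisted antisense genes share 756 exon bases with Azin1, 393 with Oaz1, 314 with Smox, and 225 with Odc1.

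Smox (ENSMUSG00000027333, chr2:131333416-131368431), which turns spermine into spermidine with release of hydrogen peroxide, had 4.51, 4.48, and 4.66 log2 CPM in CTL, 4.41, 4.33, and 4.34 in DZ, 4.78, 4.66, and 4.67 in adenine, and 4.2, 4.22, and 4.24 in SAM. No SAM or DZ dish reached the lowest CTL dish, while adenine lay at or above the highest. It fell by 0.33 in SAM (SE 0.0560, adjusted p = 6.75e-05). In DZ the difference of -0.19 stood at the threshold (adjusted p = 0.01001) and in adenine that of 0.16 did not pass it (adjusted p = 0.0215). The DZ value was called under 8 of 18 alternative settings and the adenine value under 3 of 18. The latter were plain read totals (0.22, adjusted p = 2.78e-03), an FDR of 0.05, and leaving out CTL replicate 3 (0.21, adjusted p = 4.41e-03).

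Paox (ENSMUSG00000025464, chr7:139695712-139717169), the peroxisomal oxidase of acetylated polyamines, had 3.23, 3.06, and 2.97 log2 CPM in CTL, 2.85, 2.89, and 2.99 in DZ, 2.87, 2.95, and 2.77 in adenine, and 3.08, 3.17, and 3.17 in SAM. The DZ and SAM dishes overlapped with CTL, and the adenine dishes lay below them. With its few reads the 95% interval of the log2 fold change was wide, from -0.36 to 0.0011 in DZ, from -0.40 to -0.047 in adenine (adjusted p = 0.0252), and from -0.12 to 0.23 in SAM. The adenine value was called under 3 of 17 alternatives. These were medians set equal (-0.28, adjusted p = 7.83e-03), quantile normalization (-0.32, adjusted p = 2.40e-03), and an FDR of 0.05. Its exons share 142 bases with those of the antisense gene Echs1, and whether the counting used strand is not given in the sources used here.

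**Figure D3:**
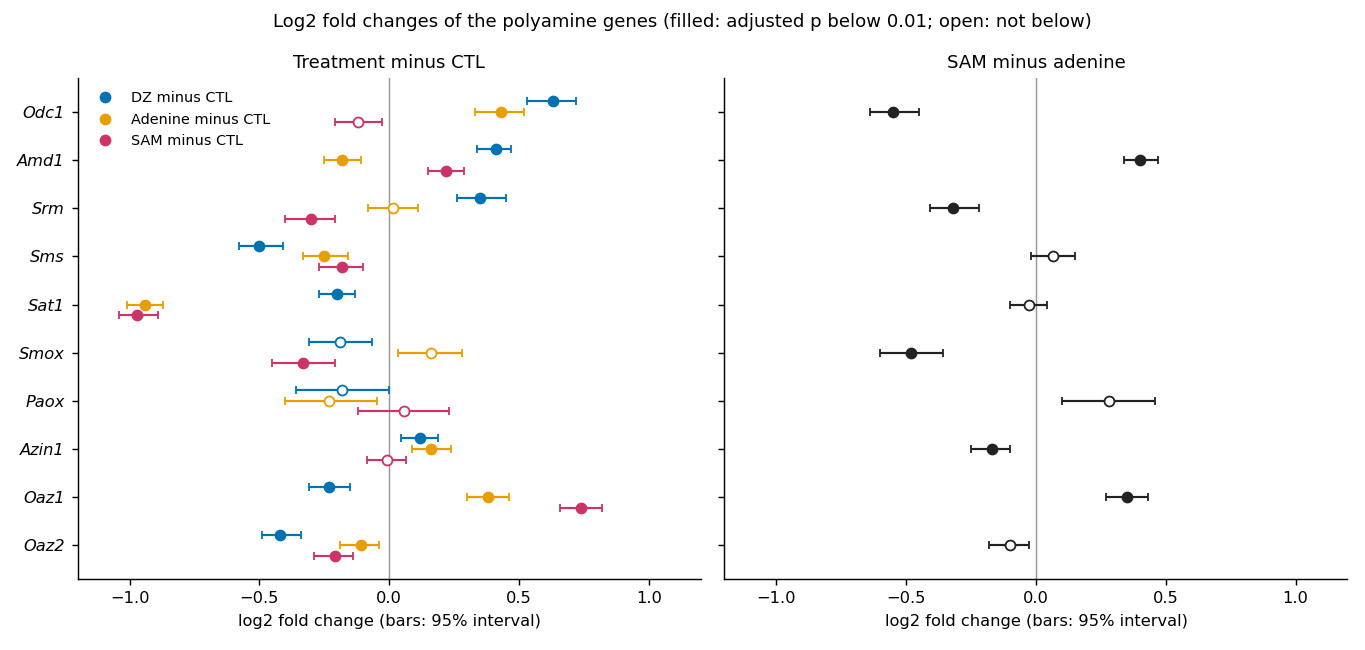
Log2 fold change of each gene with its 95% interval from the limma model (3 libraries per group), on the left for DZ, adenine, and SAM minus CTL and on the right for SAM minus adenine; filled points passed an adjusted p of 0.01 and open points did not. Sat1 fell by 0.94 with adenine and by 0.97 with SAM, and Oaz1 changed by -0.23, 0.38, and 0.74 with DZ, adenine, and SAM.

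The regulators of ornithine decarboxylase split by gene and by treatment. Oaz1 (ENSMUSG00000035242, chr10:80662516-80665124), the more abundant antizyme, was at 7.94, 7.88, and 7.96 log2 CPM in CTL and at 7.70, 7.68, and 7.69 in DZ. It was at 8.39, 8.26, and 8.28 in adenine and at 8.64, 8.61, and 8.73 in SAM. The 4 groups did not overlap at all, in the order DZ, CTL, adenine, SAM. Its log2 fold change was -0.23 in DZ (SE 0.0377, adjusted p = 9.09e-05), 0.38 in adenine (adjusted p = 2.20e-07), and 0.74 in SAM (adjusted p = 5.82e-11), the last a 1.67-fold rise.

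Oaz2 (ENSMUSG00000040652, chr9:65575283-65597582), whose frameshift window nearly matches that of Oaz1, was at 6.60, 6.64, and 6.57 log2 CPM in CTL, at 6.18, 6.20, and 6.18 in DZ, at 6.54, 6.42, and 6.51 in adenine, and at 6.39, 6.36, and 6.41 in SAM. Every treated dish lay below the CTL dishes, whereas Oaz1 fell in DZ alone. The log2 fold change was -0.42 in DZ (SE 0.0349, adjusted p = 1.07e-07), -0.11 in adenine (adjusted p = 8.74e-03), and -0.21 in SAM (adjusted p = 4.19e-05). The call in adenine was lost under 10 of 18 alternatives, among them each left-out CTL dish and adenine replicates 2 and 3, with values between -0.17 and -0.052 over all of them, and that in SAM was lost on plain read totals (-0.093, adjusted p = 0.0276).

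Azin1 (ENSMUSG00000037458, chr15:38487539-38519785), which resembles ornithine decarboxylase, has no decarboxylase activity, and takes antizyme away from it, moved little. It was at 7.26, 7.26, and 7.32 log2 CPM in CTL, at 7.35, 7.45, and 7.39 in DZ, at 7.44 in each dish of adenine, and at 7.28, 7.33, and 7.20 in SAM. DZ and adenine dishes were all above CTL, and the SAM dishes overlapped with it. Azin1 rose by 0.12 in DZ (SE 0.0350, adjusted p = 8.94e-03) and by 0.16 in adenine (adjusted p = 6.61e-04), with a difference of -0.009 in SAM (95% interval from -0.084 to 0.066). The call in DZ was lost under 7 of 18 alternatives, among them leaving out DZ replicate 2 (0.091) or 3 (0.12) or CTL replicate 1 (0.11) or 2 (0.11).

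SAM and adenine were given at the same dose and for the same time, and the 10 genes were compared directly between them. Adenine is the purine base within SAM, which carries in addition a ribose and a methionine. Past the threshold were 6 of the 10 comparisons, where 42.7% of all genes tested were called (20.8% higher and 22.0% lower in SAM). Amd1 and Oaz1 were higher in SAM, by 0.40 (SE 0.0320, adjusted p = 7.23e-08) and 0.35 (SE 0.0377, adjusted p = 1.71e-06) on the log2 scale. Odc1, Smox, Srm, and Azin1 were lower in SAM, with differences of -0.55 (adjusted p = 7.57e-08), -0.48 (adjusted p = 3.96e-06), -0.32 (adjusted p = 2.58e-05), and -0.17 (adjusted p = 7.19e-04). For each of these 6 genes, and for 8 of the 10 (61.3% of all genes), the SAM dishes lay wholly on 1 side of the adenine dishes. The call of Azin1 was lost on plain read totals (-0.11, adjusted p = 0.0107).

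No difference past the threshold was found for the other 4 genes, and the intervals limit what could have been missed. For Sat1, the difference of SAM from adenine was -0.028, with a 95% interval from -0.10 to 0.044, small beside its fall from CTL in either treatment. For Sms it was 0.065 (interval from -0.020 to 0.15) and for Oaz2 -0.10 (interval from -0.18 to -0.026, adjusted p = 0.0232). For Paox it was 0.28 (interval from 0.10 to 0.46, adjusted p = 0.0101), a value that passed under 8 of 17 alternatives. The median over the 10 genes was -0.0644, beside 1.16e-04 over all genes. DZ was given at another dose, and its values stand beside those of adenine and SAM without a test between them.

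Ratios of transcripts within a library do not depend on how libraries were scaled, and 3 of them were taken after the values above had been seen, as a description. Reads per kilobase of Oaz1 over those of Odc1, antizyme over its target, were 4.27, 4.33, and 4.37 in CTL and 2.59, 2.25, and 2.32 in DZ. They were 4.46, 3.89, and 4.28 in adenine and 7.77, 7.55, and 8.21 in SAM. The DZ dishes were thus lowest and the SAM dishes highest with no overlap, while adenine, in which both transcripts rose, overlapped with CTL. Srm over Sms averaged 4.29 ± 0.139 (SD, n = 3) in CTL, 7.74 ± 0.466 in DZ, 5.15 ± 0.350 in adenine, and 3.94 ± 0.136 in SAM. Sat1 over Srm, acetylation beside synthesis of spermidine, averaged 2.14 ± 0.108 in CTL, 1.46 ± 0.0889 in DZ, 1.11 ± 0.0388 in adenine, and 1.35 ± 0.0206 in SAM, so that every treated group was below CTL.

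**Figure D4:**
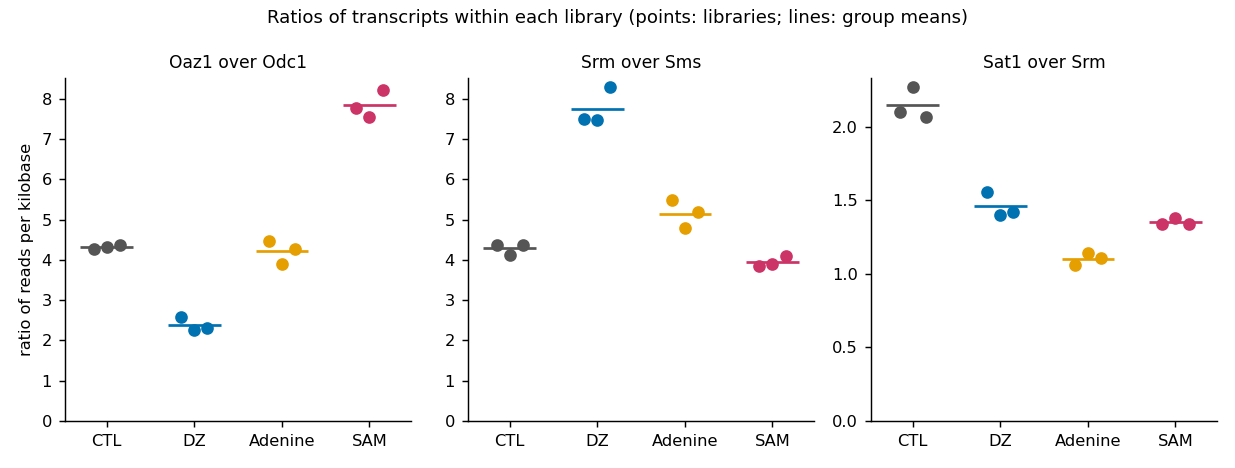
Ratios of reads per kilobase of canonical transcript within each library (points) and group means of 3 libraries (lines) for Oaz1 over Odc1, Srm over Sms, and Sat1 over Srm, on axes from 0. Oaz1 over Odc1 was near 4.3 in CTL, 2.39 in DZ, and 7.84 in SAM.

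For 4 of the 10 genes, Amd1, Oaz1, Sms, and Oaz2, related copies in the genome were counted as genes of their own. Reads could have been divided between a gene and its copies. These copies were looked up by name after the values had been seen, and copies of the other genes were not searched for. Of the windows of 76 bases, 1 read length, in the transcript of Amd1, 65.5% also occur in Amd2, an intronless relative, 22.5% in Amd-ps3, and 16.8% in Amd-ps4. The share was 47.3% for Oaz1 in Oaz1-ps, 28.1% for Sms in Sms-ps, and 5.9% for Oaz2 in Oaz2-ps. In the other direction, 78.9% of the windows of Amd2, 91.8% of those of Amd-ps3, and 76.6% of those of Amd-ps4 occur in Amd1. This share was 85.1% for Oaz1-ps in Oaz1, 100% for Sms-ps in Sms, and 22.9% for Oaz2-ps in Oaz2. The values of the copies can therefore hold reads that came from these genes, which was not tested. The values of Amd1, Oaz1, and Sms, and those of their copies, are uncertain because of these shared windows. The shares do not measure by how much, since both ends of each fragment were read and a window stands for 1 end. Amd2 had log2 fold changes of 0.38, -0.19, and 0.22 in DZ, adenine, and SAM, all called and close to those of Amd1, and Oaz1-ps had -0.21, 0.42, and 0.74, all called and close to those of Oaz1. Amd-ps3 and Amd-ps4 passed in DZ only, with 0.37 and 0.33. Sms-ps had -0.38, -0.025, and -0.079, of which the first was called, and no value of Oaz2-ps passed (-0.28, -0.23, and -0.25). How reads that match several places were assigned is not given in the sources used here.

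The other relatives of the 10 genes moved in their own ways. Of 6 paralogs and related enzymes, Oaz3, Satl1, and Agmat were not listed. Azin2, the second antizyme inhibitor, fell by 0.28 in DZ (adjusted p = 3.91e-03) and rose by 0.32 in SAM (adjusted p = 9.21e-04), with 0.076 in adenine (adjusted p = 0.366). The call in DZ was lost in 4 of 6 fits that left out a dish, those without DZ replicate 1 or 2 or CTL replicate 1 or 3 (-0.28 to -0.27, adjusted p between 0.0121 and 0.0154), and that in SAM under quantile normalization (0.21, adjusted p = 0.0163). Sat2, which is related to Sat1 by sequence but has little activity on polyamines, was low, at 1.31, 1.36, and 1.32 log2 CPM in CTL. It rose by 0.72 in adenine (adjusted p = 8.32e-05) and by 0.62 in SAM (adjusted p = 2.89e-04), opposite in sign to Sat1, and in DZ differed by 0.10 with 1 high dish (1.29, 1.72, and 1.27).

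Around the cycle, the supply of arginine and ornithine showed its largest changes with SAM. Of 12 genes of this list 8 were in the table, and DZ called 4 (3 higher, 1 lower), adenine 5 (1 higher, 4 lower), and SAM 5 (1 higher, 4 lower), with medians of 0.0572, -0.103, and -0.138. These are 50%, 62.5%, and 62.5% of the listed genes, beside 45.9%, 61.6%, and 69.3% of all genes. Slc7a1, the main transporter of cationic amino acids, was at 7.83, 7.81, and 7.81 log2 CPM in CTL and at 6.34, 6.34, and 6.16 in SAM, a change of -1.54 (SE 0.0396, adjusted p = 2.17e-14). It changed by 0.24 in DZ and -0.13 in adenine, both called, the latter lost without any 1 of the 6 dishes compared (-0.15 to -0.13) and under 3 other settings. Aldh18a1, which makes the precursor of ornithine from glutamate, was at 8.90, 8.88, and 8.93 in CTL and at 7.54, 7.60, and 7.55 in SAM, a change of -1.34. It rose by 0.43 in DZ and had -0.072 in adenine, not called and of the other sign under quantile normalization. Oat, ornithine aminotransferase, instead rose by 0.78 in adenine and by 0.91 in SAM (adjusted p = 4.38e-11 and 4.48e-12), with 0.030 in DZ. In SAM minus adenine 7 of the 8 genes were called, 3 higher and 4 lower, where 42.7% of all genes were (20.8% higher and 22.0% lower). Among them, the call of Oat (0.13) was lost under 6 of 18 alternatives, 4 of which left out a dish.

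Of 13 genes tied to polyamine transport 6 were in the table, of which DZ called 4 (3 higher, 1 lower), adenine 5 (3 higher, 2 lower), and SAM 4 (3 higher, 1 lower), with medians of 0.128, 0.172, and 0.144. The shares of 66.7%, 83.3%, and 66.7% stood beside 45.9%, 61.6%, and 69.3% of all genes. Slc3a2, a shared subunit of amino acid exchangers linked to polyamine export, changed by 0.38 in DZ, -0.14 in adenine, and -0.94 in SAM (SE 0.0288, adjusted p = 1.47e-13). All 3 were called, but the value in adenine was 0.011 under quantile normalization and -0.076 on plain read totals, neither of them called. Cav1, a caveolar protein that restrains polyamine uptake, rose in all 3 treatments, by 0.48, 0.48, and 0.69. Gpc1, a heparan sulfate proteoglycan through which polyamines enter, changed by 0.17 in DZ and -0.38 in adenine, both called, and by 0.10 in SAM, not called, but called under quantile normalization (0.18), on plain read totals (0.23), at an FDR of 0.05, and without SAM replicate 3 (0.13).

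Spermidine is also the donor for hypusine, a modified lysine of the translation factor eIF5A. All 4 genes of this list were in the table, and DZ called 3, all higher, while adenine and SAM called 2 each, all lower in the reported model, with medians of 0.240, -0.112, and -0.0903. In SAM these were Dhps and Eif5a, and the direction of Eif5a depended on the scaling, as given below. The shares were 75%, 50%, and 50%, those of adenine and SAM below the 61.6% and 69.3% of all genes and that of DZ above 45.9%. Dhps, which transfers the spermidine group, was at 5.44, 5.4, and 5.48 log2 CPM in CTL, 5.66, 5.79, and 5.63 in DZ, 4.71, 4.63, and 4.64 in adenine, and 4.42, 4.30, and 4.49 in SAM. The groups did not overlap, and the changes were 0.25 in DZ (adjusted p = 1.13e-03), -0.78 in adenine (adjusted p = 4.61e-09), and -1.04 in SAM (adjusted p = 9.18e-11). Dohh, which completes the modification, rose by 0.23 in DZ and fell by 0.13 in adenine, a call lost on plain read totals, in a separate model, and without adenine replicate 1 or 3 or CTL replicate 1 or 3 (-0.13 to -0.11). In SAM it had -0.059, not called and of the other sign on plain read totals. Eif5a rose by 0.27 in DZ, but its values in adenine (-0.030, not called) and SAM (-0.12, adjusted p = 4.91e-03) depended on the scaling. Under quantile normalization they were called higher, at 0.19 (adjusted p = 6.63e-05) and 0.18 (adjusted p = 9.36e-05), and on plain read totals they were 0.031 and 0.00069, not called. The SAM call was also lost without the variance trend, in a separate model, and without SAM replicate 1 or 2 or CTL replicate 2 or 3. No direction is therefore given for Eif5a in adenine or SAM.

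The 5 listed enzymes of the route from methylthioadenosine, the by-product of both synthases, back towards methionine were all in the table. Of these, DZ called 3 (2 higher, 1 lower), adenine 2 (both lower), and SAM 4 (2 higher, 2 lower), with medians of 0.205, -0.0113, and -0.00841. The shares were 60%, 40%, and 80%, beside 45.9%, 61.6%, and 69.3% of all genes. Mtap, which splits methylthioadenosine and releases adenine, rose by 0.30 in DZ (adjusted p = 3.68e-07) and by 0.14 in SAM, with 0.043 in adenine, not called and of the other sign with medians set equal. Apip, a dehydratase further along, was lower in each, by -0.30, -0.25, and -0.73, the call in adenine being lost on plain read totals and without adenine replicate 1 or 2 or CTL replicate 2 (-0.26 to -0.23). Adi1, the dioxygenase that makes the precursor of methionine, fell by 0.38 in adenine (SE 0.0553, adjusted p = 1.57e-05) and by 0.46 in SAM (adjusted p = 1.57e-06). In DZ it had 0.12, not called, and 0.20 without DZ replicate 2 (adjusted p = 2.56e-03).

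MYC is a known activator of Odc1 and Srm through E-boxes, so that its network was listed as well. The promoter window of Odc1 held no E-box, and bases outside the windows were not searched. Of 12 genes 10 were in the table, and DZ called 5 (2 higher, 3 lower), adenine 7 (2 higher, 5 lower), and SAM 8 (2 higher, 6 lower), with medians of -0.133, -0.168, and -0.263. The shares of 50%, 70%, and 80% lay near the 45.9%, 61.6%, and 69.3% of all genes. Myc was at 8.13, 8.15, and 8.12 log2 CPM in CTL, at 8.38, 8.44, and 8.47 in DZ, at 7.81, 7.82, and 7.83 in adenine, and at 7.40, 7.44, and 7.49 in SAM. These groups did not overlap, with changes of 0.30, -0.31, and -0.69 (SE 0.0300, adjusted p = 8.03e-07, 1.57e-07, and 8.04e-12). Mxd4, a partner of MAX that opposes MYC, moved the other way in each comparison, by -0.59, 0.36, and 0.52, all called. Mnt, another such partner, was lower in each, by -0.20, -0.37, and -0.63, the call in DZ being lost without DZ replicate 1 or CTL replicate 2 (-0.17 each). Odc1 had 0.63, 0.43, and -0.12 and Srm 0.35, 0.015, and -0.30 in the same comparisons.

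**Figure D5:**
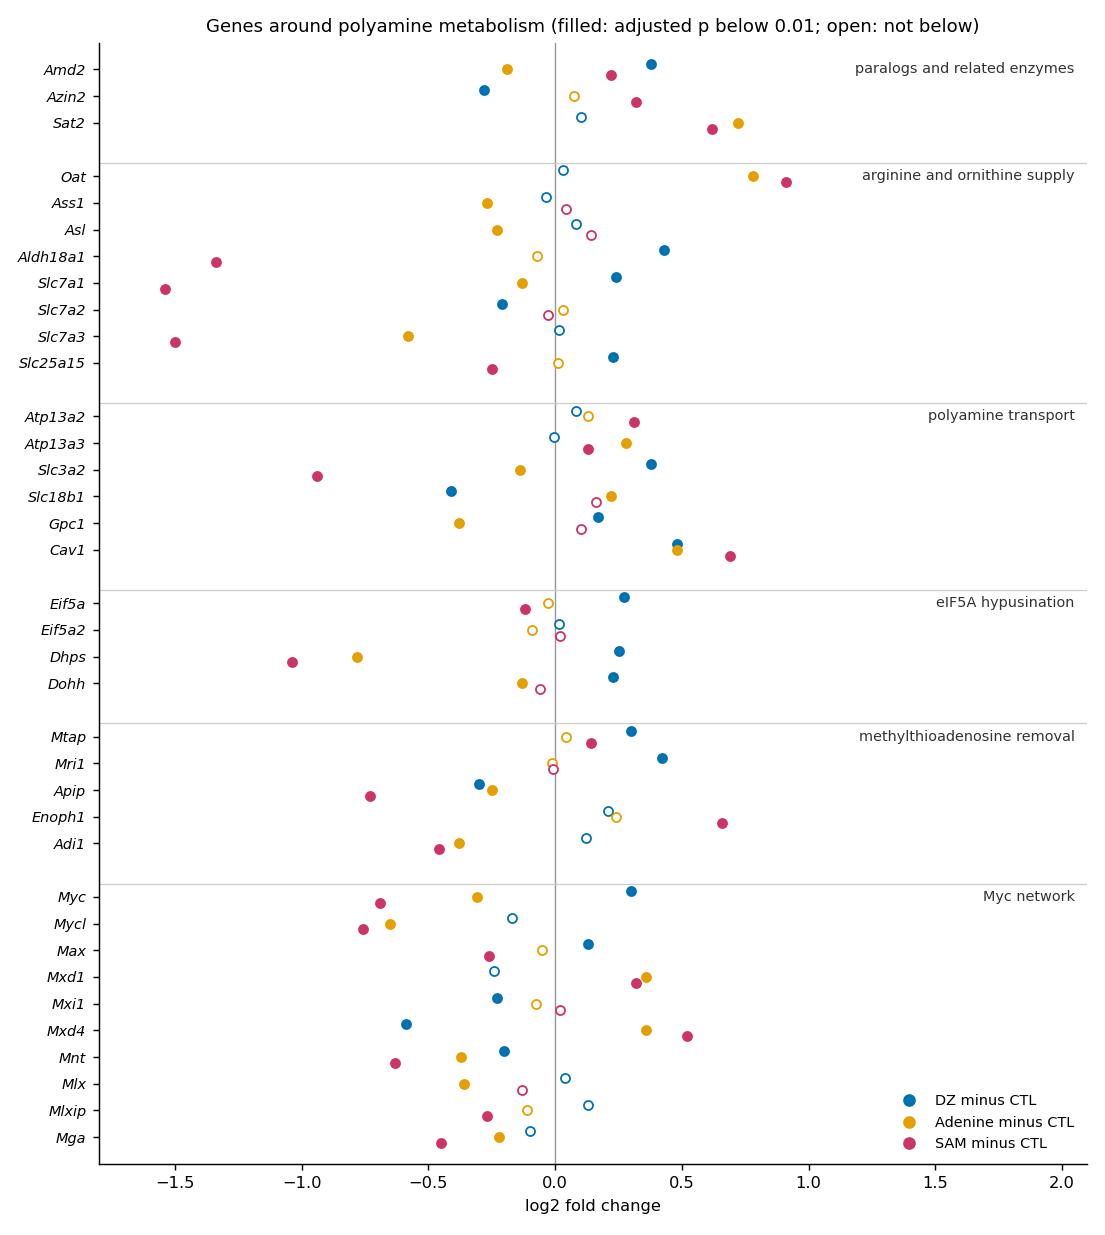
Log2 fold change against CTL of the listed genes around polyamine metabolism, grouped by list, for DZ, adenine, and SAM (3 libraries per group); filled points passed an adjusted p of 0.01 and open points did not. With SAM, Slc7a1 (-1.54), Slc7a3 (-1.50), Aldh18a1 (-1.34), and Dhps (-1.04) lay far to the left.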

How the data were processed

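Total RNA of 12 dishes was sequenced as stranded polyadenylated libraries. According to the methods and the submitters' processing notes, the authors trimmed reads with Trimmomatic, aligned them to GRCm39 with HISAT2, quantified transcripts with StringTie, and dropped genes below 1 CPM in any library. The deposited values are log2 CPM on normalized library sizes from edgeR, and the scaling method is not given in the sources used here. Whole reads were recovered with the prior count of 2 taken off, and 100% of values lay within 0.01 of a whole number (largest distance 0.0024), so that depth was known. They are StringTie estimates.

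limma 3.58.1 in R 4.3.3 (lmFit, eBayes with trend) was fitted to the deposited log2 values of all 12 libraries. Benjamini-Hochberg adjustment was over 12591 genes, with a threshold of 0.01. The fit was also run on simulated data, in which far fewer genes were changed than were called here. The authors' own test was edgeR, for which limma on log2 values stands in here. Symbols, transcripts, and sequences came from GENCODE vM39 and GRCm39, with 12575 genes matched by identifier. Protein sequences were not analysed here. Python 3.11.15, numpy 2.4.6, pandas 2.3.3, and matplotlib 3.10.9 were used. The 10 genes and all lists were chosen with earlier results of these data known. All 10 genes are named, as well as every listed paralog and the 3 genes of each other list with the smallest adjusted p against CTL. Cell type markers, pseudogene copies, ratios, and Slc7a3 are named outside this rule.

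Alternative settings were eBayes without trend or in its robust form, a log2 value of at least 1 in every library or a mean of at least 3, medians set equal, quantile normalization, plain read totals, a pseudocount of 1 CPM, voom on the recovered reads, an FDR of 0.05, a separate model per comparison, a replicate block, and leaving out each library in turn.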

Additional observations from a re-analysis of the deposited data

How the results depend on the processing

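The counts of the 10 genes called stayed within 1.5 times under every alternative run. Of 28 calls of these genes over the 4 comparisons, 23 were kept in all alternatives, and the 5 others are given in the report. Leaving out 1 library at a time gave 7 to 8 genes in DZ, 6 to 7 in adenine, 7 in SAM, and 6 to 7 in SAM minus adenine, with medians from -0.19 to -0.15, -0.076 to -0.018, -0.17 to -0.14, and -0.089 to -0.05. The median in adenine was 0.015 over the 9 genes with a mean log2 value of at least 3 (Paox is left out), -0.10 with medians set equal, and 0.012 on plain read totals. That in SAM was -0.18, -0.19, and -0.028 under these settings and -0.13 under quantile normalization, and that in SAM minus adenine was -0.10 with the filter and -0.0041 on plain totals. Plain totals moved the median of all genes in SAM from -0.0154 to 0.107, and the share of higher calls among all genes from 48.5% to 61.2% in SAM and from 48.6% to 63.2% in SAM minus adenine. The cause was not tested. Voom on the recovered reads called 5608, 7742, and 8755 genes of the table in DZ, adenine, and SAM, where the reported model called 5782, 7753, and 8731.

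Values of the other sign were all uncalled in the comparison as reported, except for Eif5a in SAM and Slc3a2 in adenine. Plain totals gave in SAM 0.0017 for Odc1, 0.11 for Azin1 (adjusted p = 6.40e-03), 0.063 for Dohh, and 0.00069 for Eif5a, in adenine 0.031 for Eif5a, and in SAM minus adenine 0.032 for Sat1. Quantile normalization gave in adenine -0.028 for Azin2, 0.051 for Aldh18a1, 0.011 for Slc3a2, and 0.19 for Eif5a, and in SAM -0.057 for Paox, 0.058 for Azin1, and 0.18 for Eif5a. Equal medians gave in adenine -0.036 for Srm and -0.0083 for Mtap. Leaving out 1 dish at a time gave values of either sign for Srm in adenine (-0.024 to 0.041), Sat2 (-0.049 to 0.18) and Oat (-0.00034 to 0.054) in DZ, Paox (-0.0021 to 0.13) and Azin1 (-0.037 to 0.024) in SAM, and Sat1 in SAM minus adenine (-0.065 to 0.00012).

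Same-numbered libraries deviated from their group means with Pearson r between -0.142 and 0.181 across genes, so that no pairing by number was seen. These values cannot show whether same-numbered dishes were handled together, which is not given in the sources used here. With the replicate number as a block, 8 genes were called in DZ, 6 in adenine (Oaz2 was lost), 7 in SAM, and 6 in SAM minus adenine, with medians of -0.18, -0.05, -0.15, and -0.064.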

Other observations

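For the 3 genes with the largest changes against CTL, the genes outside the lists whose log2 values followed them most closely over the 12 libraries were named, as a description across points that share 4 treatments. Sat1 was followed by Atp6v1g1 and Desi1 (Pearson r = 0.997 each) and Btf3 (r = 0.996). Oaz1 was followed by Maged1 (r = 0.996), Arhgef39, and Gstm5 (r = 0.994 each). Odc1 was followed by Rassf1 (r = 0.990), Mars1, a methionyl-tRNA synthetase (r = 0.971), and Vgll3 (r = 0.969). Arhgef39 had the steepest range of these, with log2 fold changes of -0.822 in DZ, 1.03 in adenine, and 1.90 in SAM, where Oaz1 had -0.23, 0.38, and 0.74.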
